A study of Mus musculus with 31 samples.

Results

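MHC class I molecules show peptides from inside the cell to CD8 T cells. The proteasome cuts proteins into peptides, and the transporter of Tap1 and Tap2 moves them into the endoplasmic reticulum. Tapasin (Tapbp) holds the transporter next to empty class I molecules, and a heavy chain (H2-K1 or H2-D1 in C57BL/6 mice) is then loaded together with beta-2-microglobulin (B2m). Inflammatory signals exchange the catalytic proteasome subunits Psmb6, Psmb7 and Psmb5 for Psmb9, Psmb10 and Psmb8, which gives the immunoproteasome, and Nlrc5 is a transactivator of class I genes. Dendritic cells use this pathway to prime CD8 T cells, and LPS, a bacterial cell wall component that signals through Toll-like receptor 4, is a common way to mature them.

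The 10 genes H2-K1, H2-D1, B2m, Tap1, Tap2, Tapbp, Psmb8, Psmb9, Psmb10 and Nlrc5 were taken by symbol from a written list. The series counts 29120 gene IDs. Earlier results of these data were known when the list was chosen, so it is not independent of them. For 9 of them the Ensembl ID had a line in the count tables, and all 9 passed the filter on low counts in both tissues. The ID that the annotation used here gives to Psmb9 had none, so no value is given for Psmb9.

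RNA was sequenced from bone-marrow-derived dendritic cells and whole spleens of C57BL/6 mice, and the series asks, by its title, how expression of Gpr34, a receptor for lysophosphatidylserine, is regulated. The groups were LPS-treated dendritic cells labelled Gpr34-/- (n = 3), LPS-treated wild-type dendritic cells (n = 3), naive dendritic cells labelled Gpr34-/- (n = 3), naive wild-type dendritic cells (n = 3), Gpr34-/- spleens (n = 9) and wild-type spleens (n = 10). Marrow came from male mice aged 8 to 16 weeks and was cultured for 10 days with GM-CSF-containing supernatant from a secreting cell line, and the treated cultures received LPS for 8 h. Spleens came from mice aged 12 weeks. The labels used here do not say how the Gpr34 allele was made or whether the cultures came from separate mice, so a p-value covers only the variation among these libraries, which may be technical.

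Total counts were 38998746 to 74164853 per dendritic cell library and 56834377 to 133277070 per spleen library. Gpr34 itself had 0, 117 and 104 counts in the LPS libraries labelled Gpr34-/- (replicates 2, 3 and 4), against 125, 65 and 65 in the LPS wild-type libraries. In naive cells it had 0, 120 and 4 counts in the libraries labelled Gpr34-/- (replicates 2, 3 and 4) and 324, 199 and 226 in the wild-type libraries. Of the 6 dendritic cell libraries labelled Gpr34-/-, 3 hold over 100 Gpr34 counts, and LPS replicates 3 and 4 lie within the range of the LPS wild-type libraries. The genotype is therefore written here as a label for dendritic cells, and every direction between genotypes rests on that label. In spleen Gpr34 had 42 to 156 counts in Gpr34-/- animals and 308 to 986 in wild-type animals. These groups do not overlap, and the spleen genotype is written as given. The list of 10 dendritic cell markers, led by Cd74, summed to 13995 to 20280 CPM (counts scaled to a common library total) in the dendritic cell libraries. In LPS wild-type cells 1 of the 10 genes had no count in any library. Spleens summed to 10826 to 26826 CPM, so this sum does not set the cultures apart from spleen. The macrophage list, led by Csf1r or Adgre1, summed to 809 to 1870 CPM in the dendritic cell libraries and 778 to 1504 CPM in spleens. Over the 12 dendritic cell libraries the T cell list summed to 0.055 to 3.58 CPM and the NK cell list to 0 to 2.33 CPM.

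The 9 measured genes differed widely in abundance. Together they took 0.876 to 0.905% of all counts in LPS cells labelled Gpr34-/-, 0.914 to 1.07% in LPS wild-type cells, 0.621 to 0.665% in naive cells labelled Gpr34-/- and 0.654 to 0.704% in naive wild-type cells. In spleen the share was 0.406 to 0.919% in Gpr34-/- animals and 0.555 to 0.747% in wild-type animals. H2-K1 ranked between place 9 and place 27 among all genes by counts in every library. Others ranked far lower: Nlrc5 was at place 4335 in naive replicate 2 labelled Gpr34-/-, and Psmb10 at place 4059 in Gpr34-/- spleen 6.

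Of the 10 genes, 7 lie on chromosome 17 between positions 33915899 and 35267499 (GRCm38, GENCODE M21), inside the mouse MHC. B2m is on chromosome 2, and Nlrc5 and Psmb10 are on chromosome 8. Tap1 and Psmb9 are neighbours that run away from each other, and the annotation lets their ends overlap. B2m overlaps Patl2 on the other strand and Tapbp overlaps Zbtb22 on the same strand. The labels do not give the use of strand in counting, so reads in these overlaps cannot be assigned with certainty. Reads of class I genes with near-identical sequence may also be split among them. H2-Q4, named for its level, averaged 3419 ± 725 CPM in Gpr34-/- spleens and 3020 ± 328 CPM in wild-type spleens (SD, n = 9 and 10), near the level of H2-K1.

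After LPS all 9 measured genes rose in wild-type dendritic cells, by 1.68-fold (H2-D1) to 3.54-fold (Nlrc5), and the LPS and naive libraries did not overlap for any of them (edgeR's quasi-likelihood test, Benjamini-Hochberg adjusted p between 4.50e-07 and 0.000213). In the same comparison 18.1% of the 16965 tested genes were called higher, and for 25.6% the LPS libraries all lay above the naive ones. In cells labelled Gpr34-/- all 9 rose as well, by 1.49-fold (B2m) to 3.25-fold (Nlrc5), with adjusted p between 1.03e-06 and 0.000693, against 15.3% of all tested genes called higher and 21.3% with libraries that did not overlap. The median log2 fold change of the 9 genes was 1.29 in wild-type cells and 1.14 in cells labelled Gpr34-/-, while that of all tested genes was -0.03 in wild-type cells and -0.02 in cells labelled Gpr34-/-. The scaling sets where 0 lies: without composition factors the median of all genes was -0.44 in wild-type cells and -0.35 in cells labelled Gpr34-/-. All 9 genes were still called higher under both labels, by log2 fold changes of 0.33 (H2-D1) to 1.42 (Nlrc5) in wild-type cells and 0.25 (B2m) to 1.37 (Nlrc5) in cells labelled Gpr34-/-.

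The sums of some marker lists of other cell types differed between LPS and naive cells. Such a sum is weighted to its most abundant gene and need not describe the other genes of the list. The mast cell list, with Kit the most abundant of its 6 genes, summed to 17.3 to 23.9 CPM in LPS cells labelled Gpr34-/- and 25.8 to 64.5 CPM in naive cells with that label. In wild-type cells it summed to 17.7 to 24.6 CPM after LPS and 58.3 to 64.4 CPM in naive cells. Only 3 of its genes had enough counts for a test, and under each label 1 was called lower and 2 were not called. The median log2 fold change of the 3 was above 0, at 0.37 in cells labelled Gpr34-/- and 0.76 in wild-type cells. The plasma cell list, with Xbp1 the most abundant of its 6 genes, summed to 406 to 450 CPM in LPS cells labelled Gpr34-/- and 504 to 745 CPM in naive cells with that label. In wild-type cells it summed to 415 to 436 CPM after LPS and 689 to 791 CPM in naive cells. Of its 4 tested genes, 1 was called higher and 1 lower in wild-type cells, with a median log2 fold change of 0.09. In cells labelled Gpr34-/- 1 was called higher and 0 lower, with a median of 0.31. The T cell list summed to 0.055 to 0.967 CPM in LPS cells labelled Gpr34-/- and 0.944 to 3.05 CPM in naive cells with that label, groups that overlap. It summed to 0.410 to 0.808 CPM in wild-type LPS cells and 2.63 to 3.58 CPM in wild-type naive cells. In bulk samples fewer cells of a type and less RNA per cell cannot be told apart, and the part of these lists in the result was not tested.

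**Figure D1:**
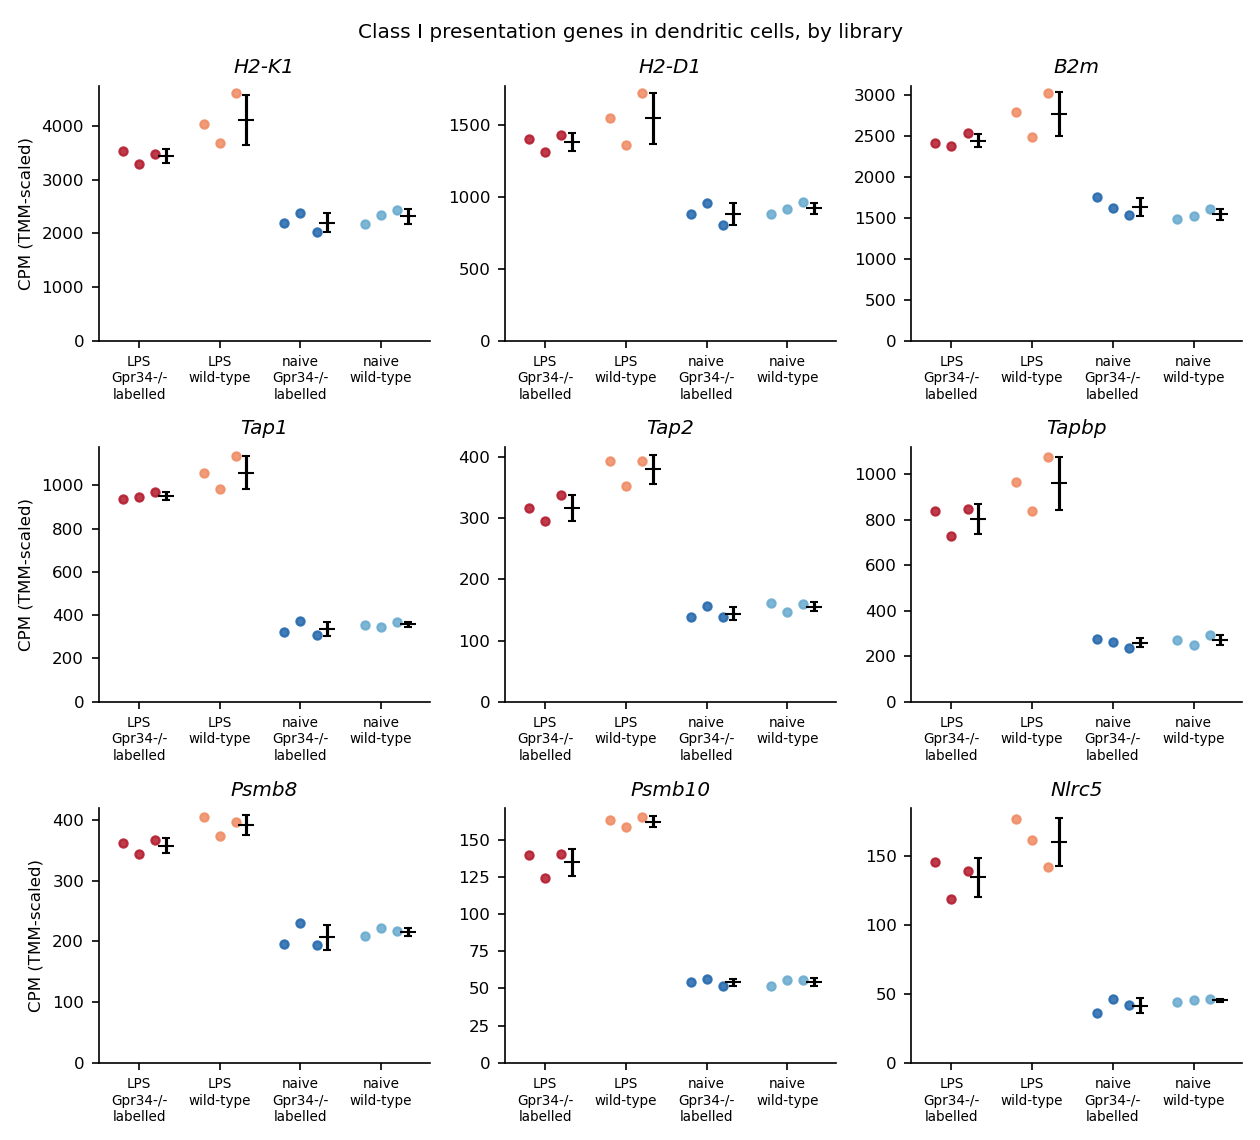
Level of each measured gene in every dendritic cell library, as TMM-scaled CPM on axes that start at 0; points are libraries and the bar beside them is the mean ± SD (n = 3). For all 9 genes every LPS library stands above every naive library, and the naive groups of the genotype labels overlap.

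Among the molecules at the surface, the H2-K1 heavy chain had 3533, 3288 and 3474 CPM in the LPS libraries labelled Gpr34-/- and 4024, 3678 and 4611 CPM in the LPS wild-type libraries. Naive libraries held 2198, 2370 and 2028 CPM with the Gpr34-/- label and 2172, 2331 and 2438 CPM with the wild-type label. The lowest LPS library thus stood well above the highest naive one, and the log2 fold change was 0.83 ± 0.10 (SE) in wild-type cells (adjusted p = 0.000103, edgeR) and 0.64 ± 0.10 in cells labelled Gpr34-/- (adjusted p = 0.000671, edgeR). H2-D1, the other classical heavy chain of this strain, averaged 1379 ± 62.6 CPM in LPS cells labelled Gpr34-/-, 1544 ± 180 in LPS wild-type cells, 882 ± 74.9 in naive cells labelled Gpr34-/- and 920 ± 40.1 in naive wild-type cells (SD, n = 3 each). B2m, the light chain that every class I molecule needs, had 2408, 2377 and 2533 CPM in the LPS libraries labelled Gpr34-/- and 2789, 2488 and 3015 CPM in the LPS wild-type libraries. Naive libraries had 1750, 1620 and 1533 CPM with the Gpr34-/- label and 1488, 1520 and 1610 CPM with the wild-type label. The 3 chains moved by like amounts: the log2 fold changes lay between 0.75 and 0.84 in wild-type cells and between 0.58 and 0.65 in cells labelled Gpr34-/-. Per kilobase of exons, H2-K1 was 2.18 ± 0.04 times H2-D1 in LPS cells labelled Gpr34-/-, 2.33 ± 0.05 times in LPS wild-type cells, 2.19 ± 0.02 times in naive cells labelled Gpr34-/- and 2.21 ± 0.04 times in naive wild-type cells (SD, n = 3 each). B2m per kilobase was 1.67 ± 0.05 times the sum of both heavy chains in LPS cells labelled Gpr34-/- and 1.61 ± 0.04 times in LPS wild-type cells. In naive cells it was 1.75 ± 0.14 times with the Gpr34-/- label and 1.57 ± 0.03 times with the wild-type label. The lengths are those of all annotated exons merged, 2938 bases for H2-K1, 2579 for H2-D1 and 860 for B2m. They may differ from those of the transcripts present, so whether B2m exceeds the heavy chains depends on this choice of length.

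The promoters of these 3 genes, from RefSeq (GRCm38.p6), are shown because the genes moved together and because class I promoters are textbook targets of NF-kB, interferon regulatory factors and Nlrc5. The windows run from 190 to 11 bases before the annotated start on the gene's own strand. They are chr17:34000358-34000537 on the minus strand for H2-K1, chr17:35262904-35263083 on the plus strand for H2-D1 and chr2:122147497-122147676 on the plus strand for B2m. The last stretch, chr17:34187341-34187545 on the plus strand, lies within the 225 bases between the starts of Tap1 and Psmb9, which both genes share as upstream sequence. Capitals mark matches on either strand to 3 patterns: GGGNNTTCC for NF-kB, AANNGAAA for the core read by interferon regulatory factors and TGACG, the core of cyclic AMP response elements, which also occurs in the X box of MHC promoters.
H2-K1: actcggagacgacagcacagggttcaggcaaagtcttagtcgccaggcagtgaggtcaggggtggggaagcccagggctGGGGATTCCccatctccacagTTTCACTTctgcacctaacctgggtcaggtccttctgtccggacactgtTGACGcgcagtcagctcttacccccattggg
H2-D1: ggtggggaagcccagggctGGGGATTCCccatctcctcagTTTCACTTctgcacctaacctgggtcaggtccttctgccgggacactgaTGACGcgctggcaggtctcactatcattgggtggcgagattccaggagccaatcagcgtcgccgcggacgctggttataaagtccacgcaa
B2m: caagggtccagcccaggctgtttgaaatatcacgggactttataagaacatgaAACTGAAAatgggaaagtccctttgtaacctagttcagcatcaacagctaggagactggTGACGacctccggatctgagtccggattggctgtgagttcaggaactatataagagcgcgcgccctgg
Tap1: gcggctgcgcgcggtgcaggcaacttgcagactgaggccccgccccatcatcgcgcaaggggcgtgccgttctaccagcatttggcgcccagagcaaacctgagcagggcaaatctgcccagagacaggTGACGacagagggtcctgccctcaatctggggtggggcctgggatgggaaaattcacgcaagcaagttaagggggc

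H2-K1 and H2-D1 hold the 3 patterns in the same order, with the NF-kB pattern from 111 to 103 bases before the start of H2-K1 and from 171 to 163 bases before that of H2-D1. B2m holds the interferon regulatory factor core and TGACG in these letters, and the stretch between Tap1 and Psmb9 holds TGACG. A window of 300 bases was at hand for 8 of the 10 genes, Psmb9 included and Tap2 and Nlrc5 not. Matches were counted by gene for the 8 and by window for all windows, so the shares are not in like units. TGACG was found in 5 of the 8, against 20.8% of all 32851 mouse windows of that length. The 5 include Tap1 and Psmb9, whose windows overlap, and the TGACG shown between their starts lies in both. AANNGAAA was found in 3 of the 8 (H2-K1, H2-D1 and B2m), against 23.9% of all windows, and GGGNNTTCC in 2 of the 8 (H2-K1 and H2-D1), against 5.82%. CCAAT was found in 6 of the 8, again with Tap1 and Psmb9 among them, against 37.4%. These patterns were searched on both strands, and a match is a description of letters and not a site.

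The genes for peptide transport and loading had larger fold changes than the chains. Tap1, one subunit of the transporter, had 938, 946 and 970 CPM in the LPS libraries labelled Gpr34-/- and 983 to 1136 CPM in the LPS wild-type libraries. Naive libraries held 322, 372 and 310 CPM with the Gpr34-/- label and 347 to 370 CPM with the wild-type label. Its log2 fold change was 1.51 ± 0.09 in cells labelled Gpr34-/- and 1.57 ± 0.09 in wild-type cells. Tap2, the other subunit, lies on chromosome 17 with Psmb8 between them (34203527 to 34216321 on GRCm38) and rose by 1.14 ± 0.09 on the log2 scale in cells labelled Gpr34-/- and 1.29 ± 0.09 in wild-type cells. As a description, per kilobase Tap1 was 2.08 ± 0.12 times Tap2 in LPS cells labelled Gpr34-/- and 1.92 ± 0.07 times in LPS wild-type cells, against 1.60 ± 0.05 times in naive cells labelled Gpr34-/- and 1.59 ± 0.06 times in naive wild-type cells (SD, n = 3 each). Tapbp, the tapasin gene, had 836, 727 and 849 CPM in the LPS libraries labelled Gpr34-/- and 963, 840 and 1075 CPM in the LPS wild-type libraries. Naive libraries held 277, 261 and 238 CPM with the Gpr34-/- label and 272, 249 and 294 CPM with the wild-type label. With log2 fold changes of 1.64 ± 0.11 in cells labelled Gpr34-/- (adjusted p = 3.50e-06, edgeR) and 1.82 ± 0.11 in wild-type cells (adjusted p = 1.43e-06, edgeR), its fold change was near that of Nlrc5.

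Nlrc5, the transactivator itself, was the least abundant of the 9 per length. It had 146, 119 and 139 CPM in the LPS libraries labelled Gpr34-/- and 177, 162 and 142 CPM in the LPS wild-type libraries. Naive libraries held 36.0, 46.6 and 41.7 CPM with the Gpr34-/- label and 43.9, 45.5 and 46.5 CPM with the wild-type label. The log2 fold change was 1.70 ± 0.12 in cells labelled Gpr34-/- (adjusted p = 4.63e-06, edgeR) and 1.83 ± 0.12 in wild-type cells (adjusted p = 2.38e-06, edgeR). Per kilobase its level was 15.9 ± 1.67 CPM in LPS cells labelled Gpr34-/- and 18.9 ± 2.07 CPM in LPS wild-type cells (SD, n = 3 each). B2m, the most abundant of the 9 per length in dendritic cells, was at 2836 ± 95.8 CPM per kilobase in LPS cells labelled Gpr34-/- and 3214 ± 307 CPM per kilobase in LPS wild-type cells.

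**Figure D2:**
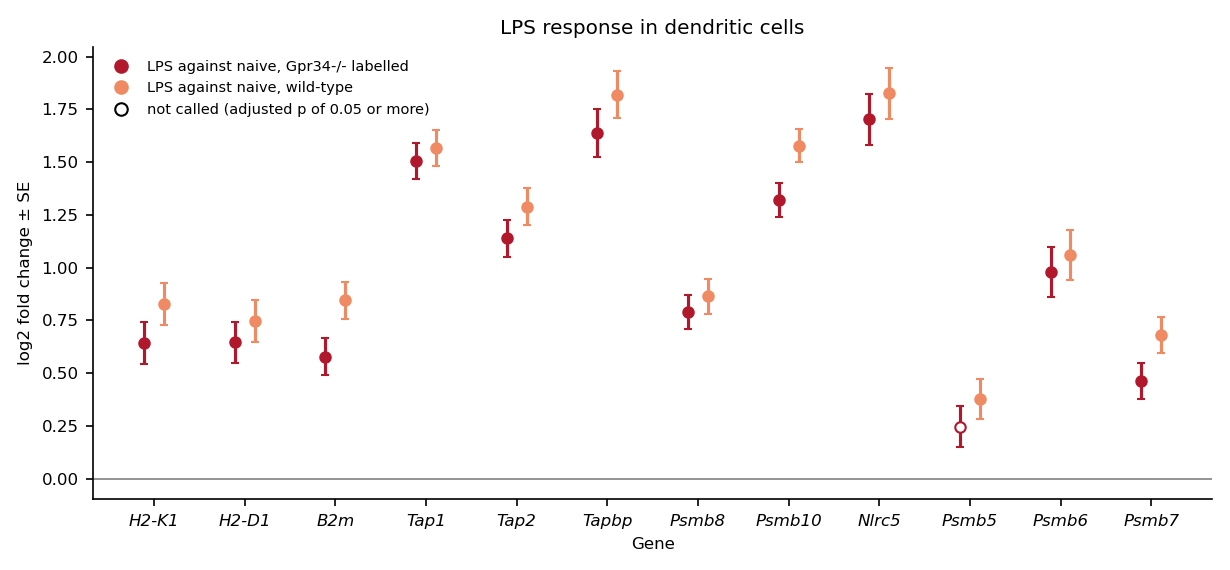
Log2 fold change of LPS over naive dendritic cells (± SE, edgeR) for the 9 measured genes and the constitutive subunits Psmb5, Psmb6 and Psmb7, in cells labelled Gpr34-/- and in wild-type cells; filled points have an adjusted p under 0.05. The loading genes, Psmb10 and Nlrc5 lie above 1, the surface chains and Psmb8 below, and the open point is Psmb5 in cells labelled Gpr34-/-.

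Both measured immunoproteasome subunits rose. Psmb8 (LMP7, the chymotrypsin-like subunit that replaces Psmb5) had 362, 344 and 367 CPM in the LPS libraries labelled Gpr34-/- and 406, 374 and 397 CPM in the LPS wild-type libraries. In naive cells it had 196, 231 and 194 CPM in the libraries labelled Gpr34-/- and 208, 221 and 217 CPM in the wild-type libraries. Psmb10 (MECL-1, which replaces Psmb7) had 140, 124 and 140 CPM in the LPS libraries labelled Gpr34-/- and 163, 158 and 165 CPM in the LPS wild-type libraries. It had 54.2, 56.3 and 51.5 CPM in the naive libraries labelled Gpr34-/- and 51.3, 55.7 and 55.9 CPM in the naive wild-type libraries. Psmb10 had the larger fold change: its log2 fold change was 1.32 ± 0.08 in cells labelled Gpr34-/- and 1.58 ± 0.08 in wild-type cells, and that of Psmb8 was 0.79 ± 0.08 in cells labelled Gpr34-/- and 0.86 ± 0.08 in wild-type cells.

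None of the constitutive subunits was called lower. In wild-type cells all 3 rose, Psmb6 by 1.06 ± 0.12, Psmb7 by 0.68 ± 0.08 and Psmb5 by 0.38 ± 0.10 on the log2 scale (adjusted p = 7.71e-05, 0.000140 and 0.0110, edgeR), but without composition factors Psmb5 was at -0.04 and was not called. In cells labelled Gpr34-/- 2 of the 3 rose, Psmb6 by 0.98 ± 0.12 and Psmb7 by 0.46 ± 0.08, and Psmb5 was at 0.25 ± 0.10 (adjusted p = 0.0786, edgeR). Without composition factors Psmb6 was still called in those cells, at 0.65, while Psmb7 was at 0.13 and Psmb5 at -0.08, neither called. Psmb6, whose inducible counterpart Psmb9 has no value here, averaged 159 ± 17.6 CPM in LPS cells labelled Gpr34-/-, 167 ± 24.5 CPM in LPS wild-type cells, 80.5 ± 5.71 CPM in naive cells labelled Gpr34-/- and 80.3 ± 4.28 CPM in naive wild-type cells (SD, n = 3 each).

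A ratio of an inducible subunit to its counterpart within a library does not depend on the scaling. The Psmb8 to Psmb5 ratio of counts was 7.73 to 8.57 in LPS libraries labelled Gpr34-/- and 7.11 to 7.81 in LPS wild-type libraries, against 4.73 to 6.61 in naive libraries labelled Gpr34-/- and 5.07 to 5.69 in naive wild-type libraries. The Psmb10 to Psmb7 ratio was 1.24 to 1.35 in LPS libraries labelled Gpr34-/- and at most 1.34 with a median of 1.33 in LPS wild-type libraries, against 0.675 to 0.776 in naive libraries labelled Gpr34-/- and 0.681 to 0.768 in naive wild-type libraries. LPS libraries lay above naive libraries in every case without overlap, and the log2 ratio differed by 0.54 in cells labelled Gpr34-/- and 0.49 in wild-type cells for Psmb8/Psmb5. For Psmb10/Psmb7 it differed by 0.86 in cells labelled Gpr34-/- and 0.90 in wild-type cells. Each gave p = 0.1 in a two-sided exact permutation test, which is the smallest that 3 against 3 libraries allow, and an adjusted p of 0.209 over the 10 ratio tests. Per length, Psmb8 made up 68.4 ± 1.12% of the sum of Psmb8 and Psmb5 in LPS cells labelled Gpr34-/- and 66.8 ± 1.18% in LPS wild-type cells, against 59.8 ± 4.03% in naive cells labelled Gpr34-/- and 58.9 ± 1.41% in naive wild-type cells (SD, n = 3 each). Psmb10 made up 72.2 ± 0.80% of its sum with Psmb7 in LPS cells labelled Gpr34-/- and 72.7 ± 0.32% in LPS wild-type cells, against 58.9 ± 1.76% in naive cells labelled Gpr34-/- and 58.8 ± 1.61% in naive wild-type cells. Length here is that of all annotated exons of a gene merged, 3381 bases for Psmb8 and 1705 for Psmb10. It may differ from that of the transcripts present, and the size of these percentages depends on it.

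**Figure D3:**
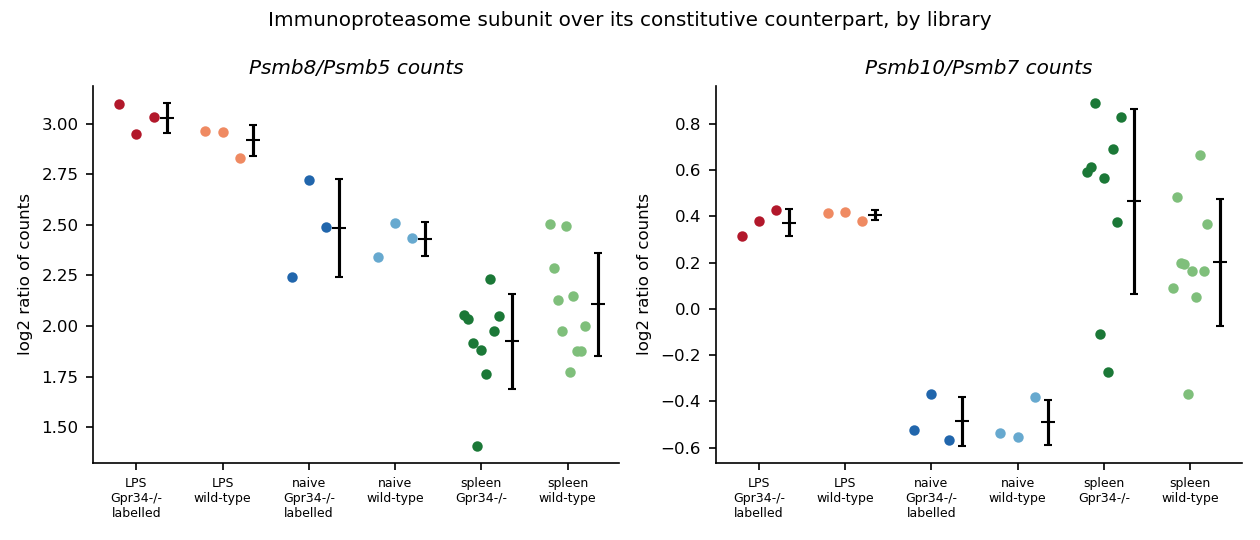
Log2 ratio of counts of Psmb8 to Psmb5 (left) and of Psmb10 to Psmb7 (right) in each library, with the mean ± SD of each group (n = 3 for dendritic cell groups, 9 Gpr34-/- spleens, 10 wild-type spleens). In dendritic cells every LPS library lies above every naive library for both ratios, and the spleens of both genotypes overlap.

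The median log2 fold change in wild-type cells was 0.63 for the other 20S core subunits and 0.45 for the 19S particle, against 1.29 for the 9 genes. Of the 11 other subunits of the 20S core, 8 rose in wild-type cells and 7 in cells labelled Gpr34-/-, and none fell. Without composition factors 6 were higher and 2 lower in wild-type cells, and 2 higher and 2 lower in cells labelled Gpr34-/-. Of the 18 genes of the 19S regulatory particle, which unfolds substrates, 12 rose in wild-type cells and 13 in cells labelled Gpr34-/-, but without composition factors 2 were higher and 2 lower under each label. The genes of the PA28 activator, which opens the core and is also induced by interferon, also rose. The log2 fold change of Psme1 was 0.87 ± 0.10 in cells labelled Gpr34-/- and 0.98 ± 0.10 in wild-type cells, and that of Psme2 was 1.14 ± 0.17 in cells labelled Gpr34-/- and 1.22 ± 0.17 in wild-type cells. Pomp, the chaperone that matures the core, rose by 0.57 ± 0.08 in cells labelled Gpr34-/- and 0.69 ± 0.09 in wild-type cells. Among the 9 activators and assembly factors 4 rose and 1 fell in wild-type cells, and 3 rose and 2 fell in cells labelled Gpr34-/-. Without composition factors 3 were higher and 2 lower in wild-type cells, and 3 higher and 3 lower in cells labelled Gpr34-/-. The genes that fell, Psmg1 in both labels and Psmg2 in cells labelled Gpr34-/-, are named after their values were seen and encode assembly chaperones of the core.

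Of the 10 other loading and trimming factors 7 rose in wild-type cells and 4 in cells labelled Gpr34-/-, and without composition factors 2 were higher and 3 lower in wild-type cells, and 2 higher and 2 lower in cells labelled Gpr34-/-. Tapbpl, a tapasin relative that edits peptides, rose by 1.13 ± 0.19 on the log2 scale in cells labelled Gpr34-/- and 1.29 ± 0.19 in wild-type cells. Hspa5, a chaperone of the endoplasmic reticulum, rose by 1.09 ± 0.26 in cells labelled Gpr34-/- and 1.40 ± 0.26 in wild-type cells. Pdia3, part of the loading complex, rose by 0.36 ± 0.11 in cells labelled Gpr34-/- and 0.46 ± 0.11 in wild-type cells. Of 17 nonclassical class I and class I-like genes, 13 rose and 3 fell under each label. Without composition factors 13 were higher and 3 lower in cells labelled Gpr34-/-, and 12 higher and 3 lower in wild-type cells. H2-T22 rose by 1.31 ± 0.09 in cells labelled Gpr34-/- and 1.42 ± 0.09 in wild-type cells, and H2-T23, the ligand of NK cell receptors known as Qa-1, by 1.09 ± 0.11 in cells labelled Gpr34-/- and 1.32 ± 0.11 in wild-type cells. The 3 that fell under each label were Mr1, which presents vitamin metabolites, Fcgrt, the neonatal Fc receptor, and Hfe, a regulator of iron uptake, named after their values were seen.

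Of 16 regulators of class I transcription, 9 rose and none fell under each label, and without composition factors 7 were higher and 4 lower in wild-type cells, and 8 higher and 3 lower in cells labelled Gpr34-/-. Stat2, which carries type I interferon signals to the nucleus, had a log2 fold change of 1.84 ± 0.08 in cells labelled Gpr34-/- and of 1.80 ± 0.08 in wild-type cells. Rfx5, a subunit of the factor that binds the X box, rose by 0.74 ± 0.12 in cells labelled Gpr34-/- and 1.13 ± 0.12 in wild-type cells. Of the 11 class I receptors on lymphocytes 5 had enough counts for a test in dendritic cells. In wild-type cells Pirb, an inhibitory receptor also made by myeloid cells, rose by 0.72 ± 0.18 on the log2 scale. Klra3 was called lower there, at 0 CPM in LPS libraries against a mean of 0.272 CPM in naive ones. No receptor was called in cells labelled Gpr34-/-. Without composition factors none of the 5 was higher and 2 were lower in wild-type cells.

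Between genotype labels, none of the 9 genes was called in naive cells, where no gene of the 16965 tested was called (0%, edgeR). Without adjustment 1139 genes had p under 0.05 in that comparison and none of the 9 did; DESeq2 called 76 genes and limma voom 1, with none of the 9 among them. The log2 fold changes lay between -0.13 (Nlrc5) and 0.09 (B2m), each with an SE between 0.08 and 0.12. The naive library labelled Gpr34-/- replicate 3, one of those with Gpr34 counts, was the highest of its group for 7 of the 9 genes. Its macrophage markers summed to 809 CPM against 1656 and 1715 CPM in the other libraries of the group. The part of that difference in the result was not tested.

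After LPS all 9 genes had lower mean levels in the libraries labelled Gpr34-/- than in the wild-type libraries, and none was called. The log2 fold changes lay between -0.13 (Psmb8) and -0.27 (Psmb10), with adjusted p of 0.274 to 0.573 (edgeR). Their median was -0.25, against -0.23 for the constitutive subunits, -0.22 for the other 20S core subunits and -0.17 for the nonclassical class I genes. It was -0.12 for the activators and assembly factors, -0.08 for the 19S particle and -0.02 for the regulators. The other loading and trimming factors were at 0.09 and all tested genes at -0.01. In that comparison no gene was called (0%) and 1914 had an unadjusted p under 0.05, while DESeq2 called 372 genes and limma voom 0. For 5 of the 9, H2-K1, Tap1, Tap2, Psmb8 and Psmb10, each library labelled Gpr34-/- lay under each wild-type library in TMM-scaled CPM, against 8.57% of all tested genes that did so. In CPM from the plain library size Tap1 overlapped, with a lowest wild-type value of 864 CPM and a highest value of 869 CPM with the Gpr34-/- label. Without adjustment 4 of the 9 had p under 0.05 (edgeR). DESeq2 called Psmb10 lower (adjusted p = 0.0184) and no other of the 9. Psmb10 averaged 135 ± 9.13 CPM in LPS libraries labelled Gpr34-/- and 162 ± 3.43 CPM in LPS wild-type libraries (SD, n = 3 each). Tap2 averaged 317 ± 21.3 CPM in LPS libraries labelled Gpr34-/- and 380 ± 23.2 CPM in LPS wild-type libraries. Of these LPS libraries labelled Gpr34-/-, replicates 3 and 4 hold Gpr34 counts; replicate 3 was the lowest of its group for 8 of the 9 genes and replicate 4 the highest for 7. The macrophage list summed to 842 CPM in replicate 3, against 1870 and 1340 CPM in replicates 2 and 4, and its part in these values was not tested. Leaving out the 3 libraries labelled Gpr34-/- that hold Gpr34 counts leaves 1 LPS and 2 naive libraries with that label, and the lone library is assumed to vary like the other groups. For that reason no count of called genes is read from that fit. The Psmb8/Psmb5 log2 ratio was 3.03 ± 0.07 in LPS libraries labelled Gpr34-/- and 2.92 ± 0.08 in LPS wild-type libraries (SD, n = 3 each; exact permutation p = 0.300, adjusted p = 0.429). The Psmb10/Psmb7 log2 ratio was 0.37 ± 0.06 in LPS libraries labelled Gpr34-/- and 0.41 ± 0.02 in LPS wild-type libraries (exact permutation p = 0.600, adjusted p = 0.750). In naive cells the 2 ratios differed between labels by 0.06 and 0.01 on the log2 scale, each with an exact permutation p of 0.800.

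The LPS response as such was also compared between labels. The interaction was between -0.27 (B2m) and -0.06 (Tap1) for the 9 genes, a smaller estimated response in cells labelled Gpr34-/- in each case, with none called and an adjusted p of 0.9999 (edgeR). No gene of the 16965 was called (0%), 678 had an unadjusted p under 0.05, DESeq2 called 21 and limma voom 0. The sign was not stable: without composition factors Tap1 was at 0.02 and Psmb8 at 0.01, and with limma voom Tap1 was at 0.03, H2-D1 at 0.01 and Psmb8 at 0.01. Without naive replicate 3 of the label Gpr34-/-, Tap1 was at 0.05 and Psmb8 at 0.03. Leaving out the 3 libraries labelled Gpr34-/- that hold Gpr34 counts put Nlrc5 at 0.07 and Psmb8 at 0.01. That fit has 1 LPS library with that label. B2m had an interaction of -0.27 ± 0.12 and Psmb10 of -0.26 ± 0.11.

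**Figure D4:**
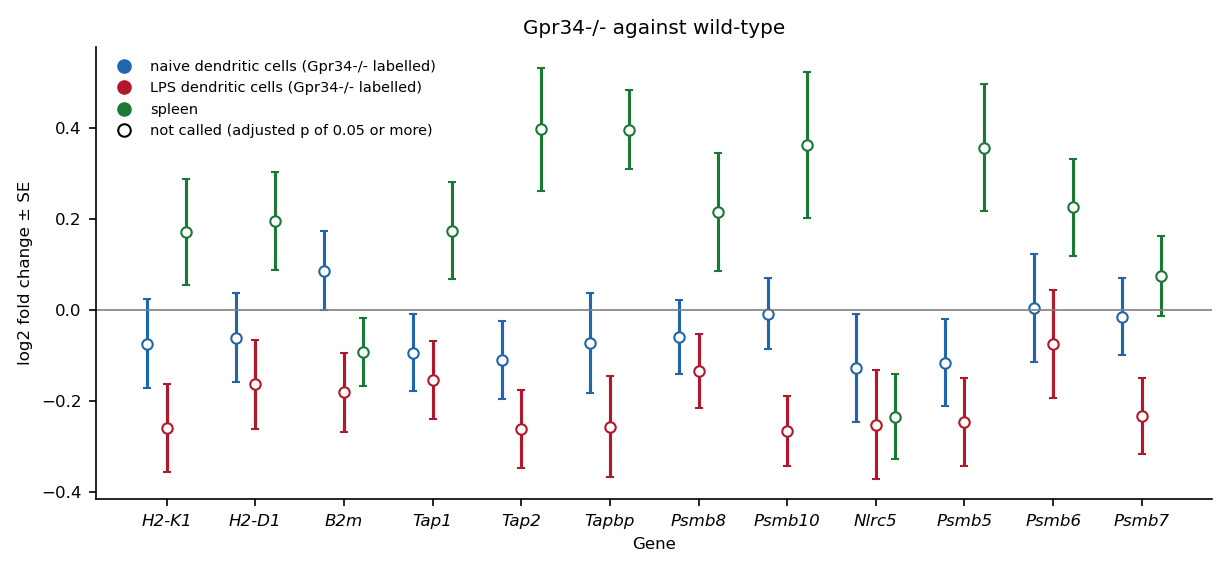
Log2 fold change of Gpr34-/- over wild-type (± SE, edgeR) for the 9 measured genes and Psmb5, Psmb6 and Psmb7 in naive dendritic cells, LPS dendritic cells (both by label) and spleen; open points have an adjusted p of 0.05 or more. No point is filled. The LPS dendritic cell values of the 9 genes and of Psmb5, Psmb6 and Psmb7 are all under 0. In spleen 7 of the 9 values are above 0, as are those of Psmb5, Psmb6 and Psmb7.

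In spleen, where B cells, T cells and red cell precursors are mixed, none of the 9 genes was called between Gpr34-/- and wild-type animals, against 0.177% of 20371 tested genes (36 genes; edgeR). Before adjustment 4 of the 9 and 3541 of all genes had p under 0.05. Tapbp was the nearest to the threshold. It had 168 to 293 CPM with a median of 234 in Gpr34-/- spleens and 145 to 206 CPM with a median of 173 in wild-type spleens, and 7 of the 9 Gpr34-/- spleens lay above all wild-type spleens. Its log2 fold change was 0.40 ± 0.09 (adjusted p = 0.0609, edgeR). Tap2 had 125 to 312 CPM with a median of 222 in Gpr34-/- spleens and 114 to 214 CPM with a median of 163 in wild-type spleens. Again 7 of the 9 Gpr34-/- spleens lay above the wild-type range, and the log2 fold change was 0.40 ± 0.14 (adjusted p = 0.155, edgeR). Both would be called with limma voom (adjusted p = 0.00725 for Tapbp and 0.0328 for Tap2), which called 790 genes in all. DESeq2 would call Tapbp (adjusted p = 0.00230), with 873 genes called in all. Without Gpr34-/- spleen 6 both were called (adjusted p = 0.0102 and 0.0278, edgeR), with 1051 genes called in all. Without wild-type spleen 2 Tapbp was called (adjusted p = 0.0447, edgeR), with 103 genes called in all.

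The other genes showed smaller differences in spleen or wider spread. Psmb10 had 48.7 to 156 CPM in Gpr34-/- spleens and 49.7 to 99.1 CPM in wild-type spleens, with a log2 fold change of 0.36 ± 0.16. Psmb8 averaged 162 ± 48.5 CPM in Gpr34-/- spleens and 140 ± 11.3 CPM in wild-type spleens, a log2 fold change of 0.21 ± 0.13. H2-K1, H2-D1 and Tap1 were at 0.17 ± 0.12, 0.20 ± 0.11 and 0.17 ± 0.11. Nlrc5 and B2m went the other way. Nlrc5 averaged 73.7 ± 11.4 CPM in Gpr34-/- spleens and 86.7 ± 9.91 CPM in wild-type spleens (log2 fold change -0.23 ± 0.09, adjusted p = 0.213, edgeR), and 8 of the 9 Gpr34-/- spleens were under the wild-type median. B2m averaged 751 ± 104 CPM in Gpr34-/- spleens and 800 ± 50.2 CPM in wild-type spleens, with a log2 fold change of -0.09 ± 0.07. Without composition factors the median of all genes was -0.10, against 0.01 with them, and all 9 kept their signs, with none called.

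**Figure D5:**
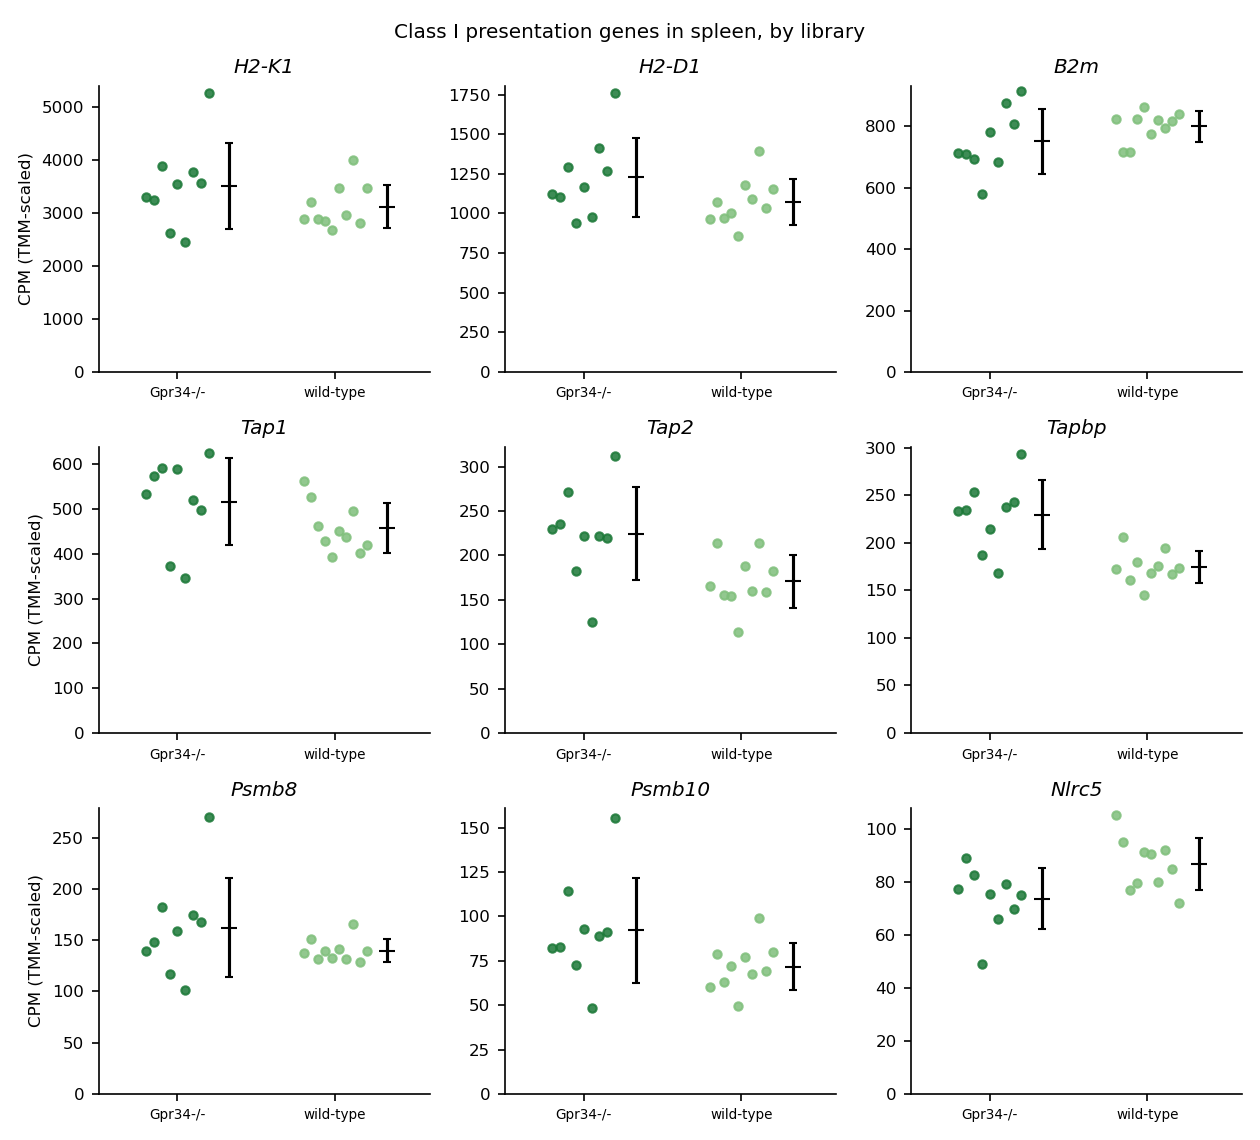
Level of each measured gene in every spleen library, as TMM-scaled CPM on axes that start at 0; points are libraries in the order of their replicate numbers and the bar beside them is the mean ± SD (9 Gpr34-/- and 10 wild-type spleens). The spread is wider in Gpr34-/- spleens for each of the 9 genes, and the last Gpr34-/- point, spleen 9, is the highest for 8 of them.

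Single animals stood at the ends of the range in spleen. Gpr34-/- spleen 9 was the highest of its group for 8 of the 9 genes, and spleens 6 and 4 were the lowest for 6 and 3 of them. H2-K1 had 5260 CPM in spleen 9, 2457 CPM in spleen 6 and 2617 CPM in spleen 4, against 2681 to 3993 CPM in wild-type spleens. The sums of other cell types' marker lists varied between the spleens. The erythroid list summed to 227378 CPM in spleen 4 and 40042 CPM in spleen 9, the highest and lowest of the Gpr34-/- group, against 31292 to 111215 CPM in wild-type spleens. The dendritic cell list, led by Cd74, which B cells also express, summed to 26826 CPM in spleen 9 and 10826 CPM in spleen 4, against 12843 to 19256 CPM in wild-type spleens. The exocrine pancreas list summed to 2953 CPM in spleen 6 and 2888 CPM in spleen 3, against 13.2 to 1394 CPM in wild-type spleens. All 9 of its genes had higher values in Gpr34-/- spleens (log2 fold change 1.19 to 2.06), and edgeR called none of them. The macrophage list was highest in spleen 6, at 1504 CPM, against 904 to 1162 CPM in wild-type spleens. The plasma cell list summed to 641 to 1155 CPM in Gpr34-/- spleens and 900 to 1492 CPM in wild-type spleens. The part of these lists in the results was not tested. With spleens 4, 6 and 9 left out, Tapbp was at 0.44 (adjusted p = 0.00840, edgeR) and Tap2 at 0.46 (adjusted p = 0.0470, edgeR). The other 7 genes were not called, and among all tested genes 297 were called in that fit. These 3 spleens stood at the ends of the range of the 9 genes, and no wild-type spleen was left out. Leaving them out can narrow the spread of 1 group by itself, so no conclusion is drawn from the 2 calls.

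The proteasome balance in spleen overlapped between genotypes. The Psmb8/Psmb5 ratio of counts was 2.65 to 4.70 in Gpr34-/- spleens and 3.42 to 5.67 in wild-type spleens, a difference of -0.18 in the log2 ratio (two-sided exact permutation p = 0.125, adjusted p = 0.209). The Psmb10/Psmb7 ratio had a median of 1.51 and a highest value of 1.85 in Gpr34-/- spleens, and a median of 1.13 and a highest value of 1.59 in wild-type spleens, a difference of 0.26 (exact permutation p = 0.111, adjusted p = 0.209). The constitutive subunits were at log2 fold changes of 0.36 ± 0.14 (Psmb5), 0.23 ± 0.11 (Psmb6) and 0.07 ± 0.09 (Psmb7), none called. No gene was called in spleen among the 11 other 20S core subunits, the 18 genes of the 19S particle, the 9 activators and assembly factors, the 10 loading and trimming factors, the 17 nonclassical class I genes, the 16 regulators or the 10 tested receptors. Psmd3, a lid subunit of the 19S particle, was the nearest, at 0.35 ± 0.07 (adjusted p = 0.0507, edgeR).

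Across all 6 groups, with CPM from the plain library size because dendritic cells and spleens were scaled apart, LPS wild-type cells had the highest median for each of the 9 genes, and LPS cells labelled Gpr34-/- came next for 8 of them. The exception was H2-K1, whose median was 3475 CPM in LPS wild-type cells, 3411 CPM in Gpr34-/- spleens, 3072 CPM in LPS cells labelled Gpr34-/-, 3064 CPM in wild-type spleens, 2659 CPM in naive wild-type cells and 2461 CPM in naive cells labelled Gpr34-/-. All neighbours in that order overlapped. B2m separated the tissues: it had 1726 to 2556 CPM over the dendritic cell groups and 459 to 915 CPM over both spleen groups. Per kilobase it was 0.531 ± 0.066 times the sum of both heavy chains in Gpr34-/- spleens and 0.639 ± 0.096 times in wild-type spleens (SD, n = 9 and 10). For Psmb8 the LPS groups overlapped neither each other nor the naive wild-type group that followed, while from there on naive groups and spleens overlapped. Nlrc5 placed the spleens between the treatments, with medians of 142 CPM in LPS wild-type cells, 123 CPM in LPS cells labelled Gpr34-/-, 91.4 CPM in wild-type spleens, 72.5 CPM in Gpr34-/- spleens, 51.9 CPM in naive wild-type cells and 48.5 CPM in naive cells labelled Gpr34-/-. These orders across tissues are descriptions and were not tested.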

How the data were processed

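Each library's deposited file lists raw read counts (whole numbers) by Ensembl ID; the authors had not normalized them. Per the submitters' processing notes, DESeq, TopHat 1.3.3, bedtools, Bowtie and SAMtools are named beside the build mm9, without roles. For the annotation, strand setting and multiply placed reads, nothing is given in the sources used here. Between 57.8 and 62.1% of counts up to 200 were even, so a count need not be 1 independent molecule. Genes absent from a file were set to 0. Places and exon lengths are those of GRCm38 (GENCODE M21), matched by Ensembl ID. A length is that of all annotated exons of a gene merged, and comparisons between genes per kilobase depend on it.

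The main test was edgeR 4.0.16 (R 4.3.3): quasi-likelihood F-test, low counts filtered by filterByExpr, TMM factors, robust dispersions and Benjamini-Hochberg adjustment over all genes at 0.05. The 12 dendritic cell libraries formed 1 fit (8 residual degrees of freedom) and the 19 spleens another (17). The SE is the log2 fold change divided by the square root of F. Subunit ratios were tested by exact permutation. The procedure was tested on simulated counts. CPM is TMM-scaled unless plain library size or a marker sum is named. Alternatives were DESeq2 1.42.0, limma 3.58.1 voom with sample weights, other scalings, no filter, only the libraries compared, a replicate block and leaving out libraries.

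The genes and lists were chosen with earlier results of these data known. Named are all 10 genes, Gpr34, Psmb5, Psmb6, Psmb7 and, per list, up to 4 genes with the smallest p; 1 gene of the regulator list and 1 searched pattern are not reported here. Deviations of same-numbered libraries from their group means correlated at 0.07 to 0.19 over the 3 LPS and naive pairs labelled Gpr34-/-, -0.13 to 0.04 over the other dendritic cell pairs and -0.22 to 0.49 over 9 spleen pairs. Not every pair was over 0.1, so numbers were not taken as pairs. Replicate 3 labelled Gpr34-/- held 120 Gpr34 counts in naive and 117 in LPS cells. Its macrophage sum was the lowest of its group in both, at 809 and 842 CPM. Replicate 4 held over 100 Gpr34 counts only after LPS. Whether equal numbers mark a shared source was not tested, and the main fit treats the libraries as separate.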

Additional observations from a re-analysis of the deposited data

Results flagged for a closer look

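One value stood apart from its group by Dixon's test at the 95% level, out of 18 groups of spleens tested (9 genes in 2 genotypes); chance gives about 1 in 20. Psmb8 had 270.5 CPM in Gpr34-/- spleen 9, against 101.1 to 183 CPM in the other 8 Gpr34-/- spleens and 128 to 166 CPM in the wild-type spleens. Groups of 3 dendritic cell libraries were not tested in this way.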

How the results depend on the processing

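The fit with 1 LPS library labelled Gpr34-/- is not counted among the alternatives here. The calls of all 9 genes after LPS held under both labels in each of the others, including every single library left out (9 called each time). In naive cells and for the interaction 0 of the 9 were called throughout. After LPS between labels, DESeq2 called 1 (Psmb10). In spleen, against 0 with edgeR, DESeq2 called 1 and limma voom 2, and leaving out 1 library gave 0 to 2. The omission of Gpr34-/- spleens 4, 6 and 9, which stood at the ends of the range, gave 2 and is no separate support. The cause of these differences was not tested. Over all genes the spleen count was 36, against 873 with DESeq2, 790 with limma voom, 190 without composition factors, 297 without spleens 4, 6 and 9, and 8 to 1051 with 1 library left out. DESeq2 called 76 genes between labels in naive cells, 372 after LPS and 21 for the interaction, against 0 each. With the replicate block the number of called genes among the 9 did not change, and 3 genes were called in spleen over all genes. Near 0, the difference of log2 ratios between labels in naive cells changed sign: Psmb8/Psmb5 to -0.0242 with the median of the other 20S core subunits as partner. With 1 library left out, it ranged from -0.0626 to 0.180 for Psmb8/Psmb5 and from -0.0544 to 0.0602 for Psmb10/Psmb7.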
